A study of Danio rerio with 12 samples.

Results

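Gene expression was described in the adult brain of unexposed-lineage zebrafish (Danio rerio, EK strain). Members are the 5 control-lineage libraries that have a named column in the deposited tables, replicates 2, 4, 5, 6 and 8, of 12 samples in the series and of 11 libraries with named columns. The founding F1 eggs were held for 24 h in ethanol vehicle with 0 µM methylmercury (MeHg), and total RNA was taken from the brain of F3 adults. The other lineage, whose F1 eggs met 0.03 µM MeHg, was not compared. Neither the sex and age of the fish nor the number of brains behind a sample is given in the labels, so p-values below measure the spread between these libraries, which may be in part technical.

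Bulk brain RNA mixes neurons, which signal mainly with glutamate (excitatory) and GABA (inhibitory), with myelinating oligodendrocytes, microglia, vessel cells and radial glia. Radial glia line the ventricles of the adult teleost brain and keep dividing into adulthood. Ancestral genome duplication left teleosts with many genes in a pair of copies, named a and b, which may have kept or divided the work of the single ancestor. In bulk RNA, fewer cells of a type and less RNA per cell cannot be told apart.

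Levels are given in FPKM, fragments per kilobase of gene scaled to sequencing depth, so that genes of different length can be set side by side. The value of a single fragment was read from the steps of the companion scaled counts, where 98.5% to 98.9% of low values were whole multiples of 1 step within 0.01. It put the depth at 2062480 to 6100930 counted fragments per library. A FPKM value of a very short gene can therefore rest on a single fragment.

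Libraries 4 and 5 stood apart, and each result below has to be read with that. Across 15861 genes at a mean of at least 1 FPKM and 10 fragments, Pearson's r of log2(FPKM + 0.1) was 0.939 to 0.948 among libraries 2, 6 and 8. It was 0.812 to 0.853 for pairs with library 4 and 0.783 to 0.827 for pairs with library 5 (correlations across genes, which are not independent replicates). Epithelial genes were high in library 4. Its skin list summed to 11255 FPKM, against 313, 1313, 304 and 371 FPKM in libraries 2, 5, 6 and 8. Keratin gene krt5 was listed at 1818 FPKM in library 4 and at 9.08 to 29.0 FPKM elsewhere. Library 5 was high in blood and muscle genes. Its red blood cell list summed to 11985 FPKM, against 1128 to 3509 FPKM in the others, and its skeletal muscle list to 703 FPKM, against 62.1 to 167 FPKM. FPKM totals also differed, with 893439 FPKM in library 5 and 596642 to 793173 FPKM in the others. Levels and list sums in FPKM are not divided by these totals. The part of other tissue in any brain gene's level was not tested.

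**Figure D1:**
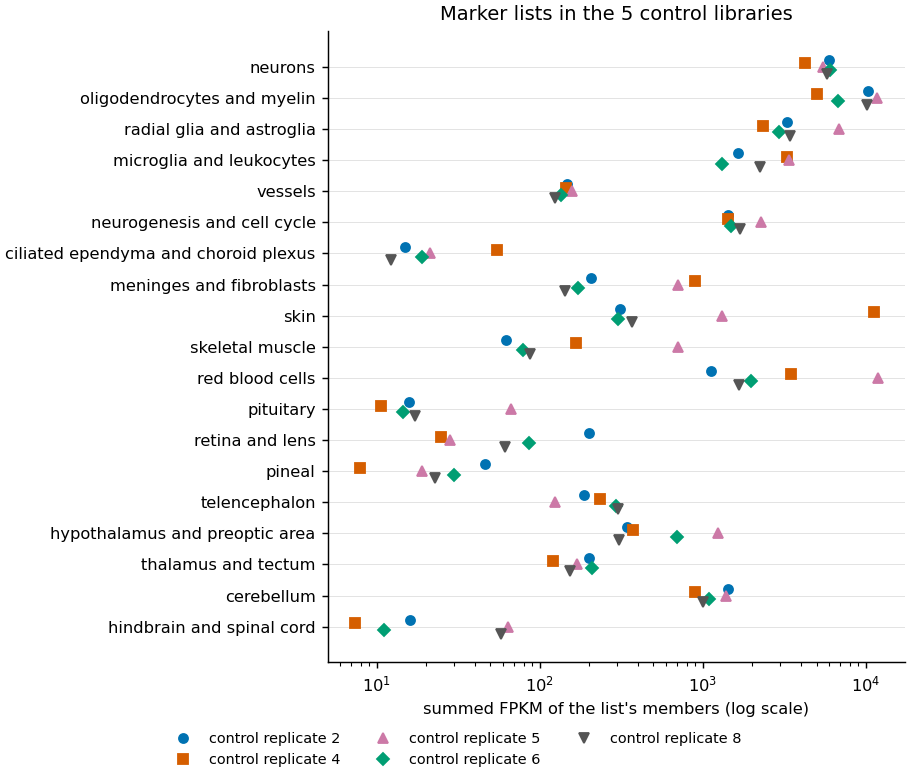
Summed FPKM (log scale) of each marker list, 1 point per control library. Neuron and vessel lists lie close together across libraries, while skin genes reached 11255 FPKM in replicate 4 and red blood cell genes 11985 FPKM in replicate 5.

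Of 32674 genes in the table, 18029 had a mean of at least 1 FPKM, and 7739 were listed at 0 in all 5 libraries. The median expressed gene stood at 8.13 FPKM. A mean of 100 FPKM was reached by 788 genes, 1000 FPKM by 76 and 10000 FPKM by 7. Of the 18029 genes, 2168 (12.0%) rested on fewer than 10 fragments on average, and 14138 reached 1 FPKM in every library. Without libraries 4 and 5 the number at a mean of 1 FPKM was 17338.

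The 10 most abundant genes by mean held 20.02% ± 8.32 of a library's FPKM total (SD, n = 5), the top 100 held 39.1% ± 8.43 and the top 1000 held 67.6% ± 5.90. By library, the share of the top 10 was 16.5%, 13.0%, 22.1%, 14.9% and 33.6% in replicates 2, 4, 5, 6 and 8. Libraries 5 and 8 had the largest shares. In library 8 that share includes ENSDARG00000081369, listed at 81485 of 793173 FPKM on 3 fragments. ENSDARG00000082789, on 1 fragment each, adds to libraries 2 and 6. Without genes under 10 fragments on average the mean share was 19.1% ± 6.92 (SD, n = 5). In the scaled counts, which are not divided by gene length, the top 10, 100 and 1000 held 10.8% ± 3.81, 23.7% ± 4.72 and 52.4% ± 4.28 (SD, n = 5). There the top 10 held 15.8% and 13.8% in libraries 5 and 8 and 7.16% to 8.69% in the others.

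**Figure D2:**
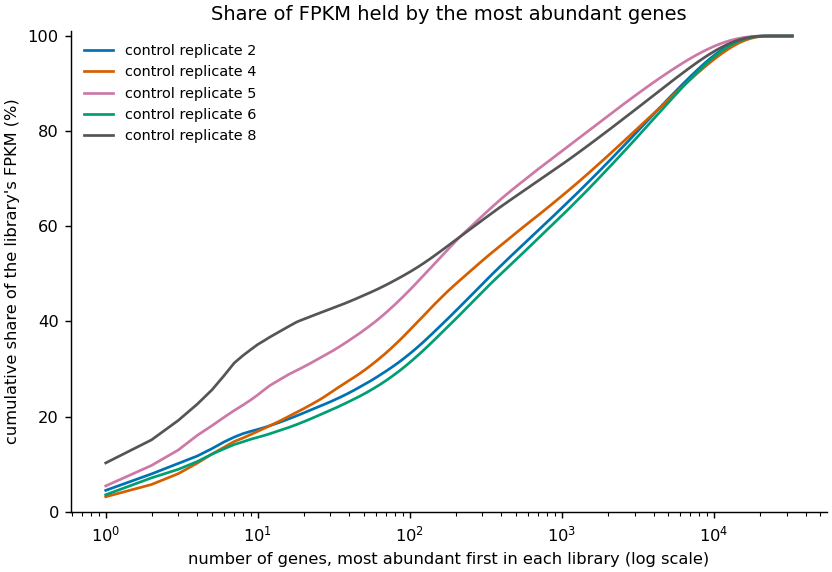
Cumulative share of each library's FPKM total (%) against the number of genes, ranked within that library (log scale). Replicates 5 and 8 rise earlier than replicates 2, 4 and 6. In replicate 8 this includes 1 gene listed at 81485 FPKM on 3 fragments. Ranked this way, the top 10 genes held 21.9% on average.

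The 13 mitochondrially encoded genes matched by name took 11 of the 20 highest mean levels. These genes, which encode core subunits of the respiratory chain and the ATP synthase, held 14.4% ± 6.25 of FPKM (SD, n = 5), and libraries 5 and 8 were again high, with 19.4% and 22.5% against 8.60% to 12.2%. Cytochrome c oxidase subunit mt-co2 led them with 9846, 13974, 38432, 10692 and 23860 FPKM in replicates 2, 4, 5, 6 and 8. The ATP synthase gene mt-atp8 ranged from 1025 FPKM in replicate 6 to 38434 FPKM in replicate 8. Cytosolic ribosomal protein genes, led by rpl31, rplp0 and rps2, held a further 9.08% ± 2.48 of FPKM (SD, n = 5), with all 71 matched members above 1 FPKM.

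The highest mean of all belonged to ENSDARG00000014745, which neither the table nor the reference names, at 28210 ± 12459 FPKM (SD, n = 5). It ranged from 15809 FPKM in replicate 4 to 48616 FPKM in replicate 5, on 84443 fragments on average. A second unnamed gene, ENSDARG00000082753, stood at 4694 ± 2056 FPKM (SD, n = 5). Whether unnamed genes are encoded in the nucleus or the mitochondrion was not checked. Other high means rested on almost no fragments. ENSDARG00000081369 reached rank 5 from 3 fragments in replicate 8, where it was listed at 81485 FPKM, and was at 0 elsewhere. ENSDARG00000082789 reached rank 8 from 1 fragment each in replicates 2 and 6. In all, 3 of the top 20 genes rested on fewer than 10 fragments on average, and genes of that kind held 1.21% to 13.7% of a library's FPKM.

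Among named nuclear genes the myelin basic protein gene mbpa, whose product compacts the myelin sheath, was the most abundant, with 8777, 4107, 9696, 5349 and 8552 FPKM in replicates 2, 4, 5, 6 and 8. All 5 libraries held it above every nuclear gene in this paragraph except in replicate 5, where si:xx-by187g17.1 was higher. Beta globin gene ba1 stood at 3295 ± 3498 FPKM (SD, n = 5), with a range of 903 to 9384 FPKM and, like the red blood cell list, its highest level in library 5. Cytoplasmic actin gene actb2 was steadier, at 2607 ± 507 FPKM (SD, n = 5). The γ-glutamylcyclotransferase gene ggctb stood at 2281 ± 970 FPKM, the actin monomer binding tmsb4x at 2150 ± 759 FPKM and the brain creatine kinase gene ckbb at 2035 ± 567 FPKM (SD, n = 5 each). Clone-named si:xx-by187g17.1 had a mean of 4358 ± 4808 FPKM (SD, n = 5), from 1138 to 12775 FPKM, again highest in library 5.

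The labelled tissue was checked against marker lists. The neuron list was measured for 28 of 35 listed genes, 27 of them at 1 FPKM or more, and summed to 5498 ± 718 FPKM (SD, n = 5). Its leader was snap25a, a membrane SNARE of transmitter release, with 1299, 1080, 1670, 1284 and 1469 FPKM in replicates 2, 4, 5, 6 and 8. Oligodendrocyte and myelin genes summed to 8800 ± 2796 FPKM (SD, n = 5), of which mbpa gave most. Proteolipid gene plp1b stood at 555 ± 158 FPKM and myelin protein zero gene mpz at 546 ± 123 FPKM (SD, n = 5 each). The ratio of mbpa to plp1b lay between 10.96 and 15.7 in all 5 libraries, a narrower range than that of either level.

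Radial glia and astroglia genes summed to 3782 ± 1793 FPKM (SD, n = 5). Brain fatty acid binding protein gene fabp7a led with 1344, 873, 3154, 1203 and 1389 FPKM in replicates 2, 4, 5, 6 and 8, followed by s100b at 912 ± 682 FPKM and the gap junction gene cx43 at 560 ± 124 FPKM (SD, n = 5 each). Library 5 was the high one for fabp7a and s100b. The intermediate filament gene gfap, the usual astroglial marker, was far lower, at 52.0 ± 24.6 FPKM (SD, n = 5).

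Microglia and leukocyte genes summed to 2388 ± 950 FPKM (SD, n = 5). Most of this came from the apolipoprotein genes apoeb and apoc1, at 844 ± 628 and 614 ± 380 FPKM, and from cd74a, the invariant chain of antigen presentation, at 369 ± 68.9 FPKM (SD, n = 5 each). The macrophage-defining mpeg1 stood at 11.3 ± 3.64 FPKM and the myeloid factor gene spi1b at 10.8 ± 4.83 FPKM (SD, n = 5 each). Vessel genes were low, and their sum of 142 ± 13.1 FPKM (SD, n = 5) was more even than its members. The leading glucose transporter gene slc2a1a ran from 6.77 FPKM in library 5 to 42.5 FPKM in library 2. Genes of ciliated cells summed to 54.7 FPKM in library 4 and 12.2 to 21.3 FPKM in the others, with spag6, cfap45 and rsph9 at means of 4.84, 4.84 and 4.47 FPKM. Neurogenesis and cell cycle genes summed to 1665 ± 360 FPKM (SD, n = 5), led by the microtubule regulator gene stmn1b at 899 ± 271 FPKM, with the proneural factor gene neurod1 at 124 ± 28.2 FPKM and the chromatin protein gene hmgb2b at 109 ± 37.7 FPKM (SD, n = 5 each).

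Region markers varied more than cell type markers in some lists. The cerebellum list summed to 1168 ± 235 FPKM (SD, n = 5), within a 1.58-fold range, led by the Purkinje cell parvalbumin gene pvalb7 at 269 ± 102 FPKM, then zic1 at 163 ± 40.6 FPKM and cbln12 at 155 ± 49.2 FPKM. Thalamus and tectum genes (tcf7l2, gata3 and otx2 first) summed to 171 ± 36.0 FPKM (SD, n = 5). Telencephalon genes summed to 229 ± 74.6 FPKM (SD, n = 5). Within that list the pallial factor gene eomesa was listed at 31.3, 32.4, 6.21, 49.5 and 45.9 FPKM in replicates 2, 4, 5, 6 and 8, so library 5 lay below the others. The other leading members, bhlhe22 and neurod6b, stood at 52.3 ± 24.3 and 24.6 ± 7.66 FPKM (SD, n = 5 each).

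Hypothalamus and preoptic genes went the other way, summing to 1243 FPKM in library 5 and 306 to 693 FPKM in the others. Oxytocin gene oxt gave most of this, with 195, 257, 974, 493 and 156 FPKM in replicates 2, 4, 5, 6 and 8, and vasopressin gene avp stood at 62.6 ± 38.8 FPKM (SD, n = 5). The sum of hindbrain and spinal cord genes was 63.9 and 58.0 FPKM in libraries 5 and 8 and 16.01, 7.32 and 11.1 FPKM in libraries 2, 4 and 6. Homeobox gene hoxb5a, which is expressed in the posterior hindbrain and cord, was at 13.1 and 10.3 FPKM in libraries 5 and 8 and at 0.75, 0.17 and 0.25 FPKM in libraries 2, 4 and 6. This grouping of libraries was read from the list's own sums, so hoxb5a, a member, adds no support to it. How much cord each dissection held is not given in the sources used here.

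Summed levels of genes of tissues next to the brain differed widely between libraries. Retina and lens genes summed to 200 FPKM in library 2 and 24.9 to 85.7 FPKM in the others, with the rod opsin gene rho at 74.9 FPKM in library 2 and 10.8 to 27.0 FPKM elsewhere. Pineal genes were likewise highest in library 2, at 46.0 against 7.91 to 30.001 FPKM. Most of the sum in library 2 came from gnb3b and tph2, at 20.4 and 14.9 FPKM. As tph2 is also counted as a serotonin gene below, the sum does not stand for pineal tissue alone. Pituitary genes summed to 67.1 FPKM in library 5 and 10.6 to 17.1 FPKM elsewhere, and the glycoprotein hormone alpha gene cga was at 26.6 FPKM against 0.25 to 3.09 FPKM. Meninges and fibroblast genes summed to 901 and 707 FPKM in libraries 4 and 5 and to 144 to 205 FPKM in the others. Most of this was the single gene ptgdsb, at 719 and 456 FPKM in libraries 4 and 5 and 103 to 156 FPKM elsewhere. Collagen gene col1a1a was instead highest in library 5, at 67.9 FPKM, with 25.02 FPKM in library 4 and 3.20 to 4.51 FPKM elsewhere. Without libraries 4 and 5, sums over the remaining 3 libraries were 329 ± 36.6 FPKM for skin, 76.3 ± 13.1 FPKM for muscle and 1598 ± 437 FPKM for red blood cells (SD, n = 3 each), while neurons summed to 5919 ± 129 FPKM (SD, n = 3).

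Summed levels of glycolysis, stress and clock genes differed less between libraries than those of most adjacent tissues. Glycolysis and creatine kinase genes summed to 8728 ± 1850 FPKM (SD, n = 5), led by ckbb, the glyceraldehyde-3-phosphate dehydrogenase gene gapdhs at 1773 ± 443 FPKM and the aldolase C gene aldocb at 1086 ± 203 FPKM (SD, n = 5 each). Heat shock and stress genes summed to 2961 ± 403 FPKM (SD, n = 5), with the chaperone genes hsp90ab1 and hspa8 at 1173 ± 207 and 656 ± 113 FPKM and the metallothionein gene mt2 at 390 ± 120 FPKM (SD, n = 5 each). Circadian clock genes summed to 1158 ± 160 FPKM (SD, n = 5), with tefa, bhlhe40 and nr1d2b at 174 ± 23.4, 152 ± 30.5 and 127 ± 19.1 FPKM. Genes of the immediate early class, induced by activity in neurons, summed to 571 ± 123 FPKM (SD, n = 5). Of these, egr1 was at 95.2, 86.7, 51.6, 128 and 126 FPKM in replicates 2, 4, 5, 6 and 8.

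By summed level, glutamate and GABA stood above the other transmitter systems. The matched genes of glutamate summed to 1473 ± 456 FPKM (48 of 60 listed) and those of GABA to 1469 ± 392 FPKM (29 of 37 listed; SD, n = 5 each). Dopamine and noradrenaline (33 of 38) summed to 156 ± 24.5 FPKM, acetylcholine (20 of 33) to 152 ± 30.2 FPKM, glycine (9 of 9) to 135 ± 16.8 FPKM, serotonin (18 of 26) to 74.9 ± 15.5 FPKM and histamine (5 of 6) to 44.0 ± 12.3 FPKM (SD, n = 5 each). Sums hold only genes found by name, so a system with more unmatched genes is understated. They also mix synthesis, transport and receptor genes in different numbers.

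Neighbours in this order were compared within each library by an exact two-sided sign-flip permutation test, which with 5 libraries cannot go below p = 0.0625 and so cannot pass 0.05. GABA exceeded dopamine and noradrenaline by a log2 ratio of 3.21 ± 0.28 (SD, n = 5), higher in 5 of 5 libraries (exact permutation p = 0.0625). Glycine over serotonin (0.87 ± 0.16) and serotonin over histamine (0.79 ± 0.59) were also the same way in 5 of 5 libraries, as was acetylcholine over glycine, by only 0.15 ± 0.14 (SD, n = 5; exact permutation p = 0.0625 for each). The summed log2 ratio of glutamate over GABA was −0.02 ± 0.15, with glutamate higher in 4 of 5 libraries (SD, n = 5; exact permutation p = 1), while the median of members gave −0.91 ± 0.34. Dopamine with noradrenaline over acetylcholine was 0.05 ± 0.14, higher in 4 of 5 libraries (SD, n = 5; exact permutation p = 0.5). These sums give no order within either pair. Without library 5 the glutamate over GABA ratio changed sign to 0.05, and without libraries 4 and 5 it was 0.04 and that of dopamine with noradrenaline over acetylcholine −0.0067. By the median of members at 1 FPKM instead of the sum, the first of the neighbours was the lower one in 4 of the 6 comparisons.

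**Figure D3:**
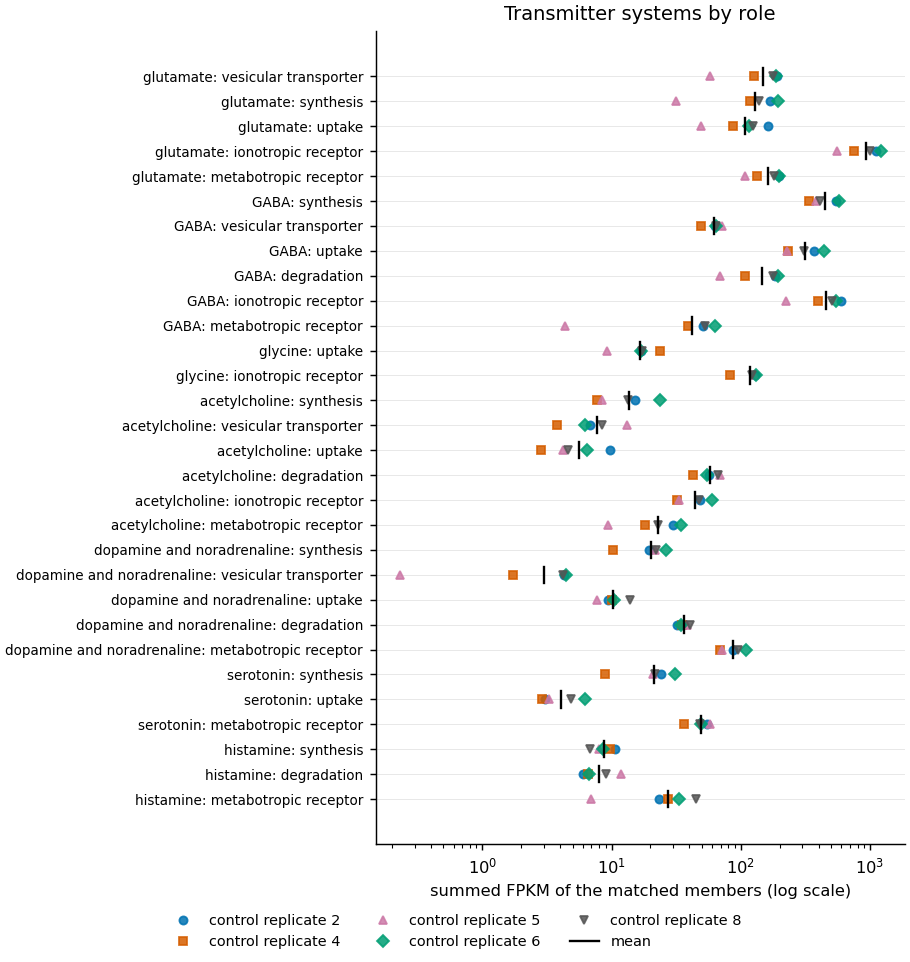
Summed FPKM (log scale) of matched genes by transmitter system and role, 1 point per control library and a bar at the mean. Ionotropic glutamate receptors are the highest role at 925 FPKM on average, and library 5 lies lowest for most glutamate and GABA receptor roles.

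Receptors made up most of the glutamate sum. Ionotropic receptor genes summed to 925 ± 264 FPKM and metabotropic ones to 163 ± 40.1 FPKM (SD, n = 5 each). The obligatory NMDA receptor subunit gene grin1a was listed at 412, 258, 199, 444 and 394 FPKM in replicates 2, 4, 5, 6 and 8, or 74.0% ± 1.19 of matched NMDA receptor genes (SD, n = 5). Among AMPA receptor genes gria2b held 43.3% ± 3.50 and gria2a 19.7% ± 0.81 (SD, n = 5 each); their mammalian counterpart limits calcium entry through the channel. The 2 grin1 copies together stood at 1.04 times the sum of all AMPA receptor genes, between 0.96 and 1.11 in the 5 libraries. The share of grin1a thus varied little although ionotropic receptor genes summed to 560 FPKM in library 5 and 756 to 1205 FPKM in the others.

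Vesicular glutamate transporters, which load transmitter into vesicles, summed to 147 ± 56.1 FPKM (SD, n = 5). Their leader slc17a6a was at 73.4, 55.4, 6.01, 81.9 and 83.3 FPKM in replicates 2, 4, 5, 6 and 8, so library 5 alone lay far below. Its copy slc17a6b did not share this, with 34.7 FPKM in library 5 and 26.8 to 48.3 FPKM elsewhere. Among matched genes, glutaminase gene glsb led synthesis at 97.3 ± 45.5 FPKM (3 of 4 listed matched). The glial transporter gene slc1a3b led uptake at 65.9 ± 36.4 FPKM (7 of 11 matched). Gene grm2b led the metabotropic receptors at 51.9 ± 14.3 FPKM (9 of 13 matched; SD, n = 5 each). The glutamate transporter gene slc1a2b had no match by name, so the leader of all uptake genes is not known.

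GABA synthesis genes summed to 448 ± 103 FPKM (SD, n = 5), with the glutamate decarboxylase gene gad1b at 264 ± 88.9 FPKM and gad2 at 163 ± 27.5 FPKM. The single vesicular transporter gene slc32a1 stood at 62.4 ± 8.06 FPKM, the uptake gene slc6a1b at 228 ± 65.6 FPKM and the degrading transaminase gene abat at 118 ± 49.3 FPKM (SD, n = 5 each). Ionotropic receptor genes (16 of 23 listed matched) summed to 454 ± 147 FPKM (SD, n = 5). First among those matched was the extrasynaptic delta subunit gene gabrd at 110 ± 25.03 FPKM. It was 26.2% ± 7.05 of the GABA-A subunit genes matched, 11 of 18 listed. The metabotropic receptor gene gabbr1b was at 33.4, 26.2, 2.60, 36.4 and 31.4 FPKM in replicates 2, 4, 5, 6 and 8, again with library 5 far below. Vesicular glutamate over vesicular GABA transporters gave ratios of 2.57 to 2.99 in libraries 2, 4, 6 and 8 and 0.81 in library 5.

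Glycine was mostly receptor, with glrbb, the beta subunit, at 69.5 ± 12.2 FPKM, and the transporter gene slc6a9 at 16.1 ± 5.21 FPKM (SD, n = 5 each). The neuronal glycine transporter gene slc6a5 stood at only 0.63 ± 0.72 FPKM (SD, n = 5). Acetylcholine's highest matched gene was that of the degrading enzyme, ache, at 58.1 ± 10.6 FPKM. The synthesis gene chata stood at 13.7 ± 6.50 FPKM, slc18a3a at 7.69 ± 3.47 FPKM, slc5a7a at 5.56 ± 2.65 FPKM, the muscarinic receptor gene chrm4a at 18.9 ± 7.54 FPKM and the nicotinic subunit gene chrnb3a at 13.5 ± 4.87 FPKM (SD, n = 5 each).

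Defining monoamine genes were at low levels. Tyrosine hydroxylase gene th stood at 8.22, 5.83, 7.17, 16.9 and 8.98 FPKM in replicates 2, 4, 5, 6 and 8, with library 6 the high one. The neuronal tryptophan hydroxylase gene tph2 was at 14.9, 4.07, 13.3, 19.4 and 12.2 FPKM and the histidine decarboxylase gene hdc at 10.7, 9.69, 7.99, 8.60 and 6.7999 FPKM. These ranges overlap, and tph2 exceeded th in 4 of 5 libraries. The vesicular monoamine transporter gene slc18a2 was at 4.30, 1.71, 0.23, 4.44 and 4.25 FPKM, lowest in library 5. Other leaders by role among matched genes were the dopamine transporter gene slc6a3 (6.44 ± 2.53 FPKM) and mao (19.9 ± 0.80 FPKM). The adrenergic receptor gene adra2c led the dopamine and noradrenaline receptors (18.1 ± 5.96 FPKM). For serotonin, slc6a4a led uptake (3.37 ± 1.52 FPKM). Gene htr1aa led the metabotropic serotonin receptors, 11 of 19 matched (14.96 ± 2.50 FPKM, SD, n = 5 for each of these). For histamine, the receptor gene hrh3 stood at 25.2 ± 13.7 FPKM and hnmt at 8.05 ± 2.43 FPKM (SD, n = 5 each). Both ionotropic serotonin receptor genes measured, htr3a and htr3b, were listed at 0.

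Neuropeptide precursor genes together summed to 4021 ± 1285 FPKM (SD, n = 5), above each transmitter system in all 5 libraries, and 49 of 50 matched genes reached 1 FPKM. The melanin-concentrating hormone-like gene pmchl had the highest mean, with 762, 624, 1586, 337 and 278 FPKM in replicates 2, 4, 5, 6 and 8. In libraries 6 and 8 the PACAP gene adcyap1b was higher than pmchl, at 532 and 556 FPKM. The PACAP gene adcyap1b was more even, at 461 ± 81.3 FPKM (SD, n = 5), from 364 FPKM in library 5 to 556 FPKM in library 8. Oxytocin gene oxt followed at 415 ± 339 FPKM, then the secretory granule genes scg2b and chga at 338 ± 66.0 and 193 ± 22.1 FPKM and the feeding-related peptide gene cart2 at 166 ± 38.0 FPKM (SD, n = 5 each). The whole list summed to 6288 FPKM in library 5 against 3226 to 3784 FPKM in the others. Library 5 also had the largest FPKM total. As a share of each library's total, the list held 0.57% ± 0.11 (SD, n = 5).

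Gene pairs taken as copies by their names were compared within each library. Whether the members of a pair stem from 1 duplicated gene was not checked, and pairs such as chga and chgb may not. Of 2029 gene pairs whose names differ only in the a or b suffix and 85 chosen pairs, 1817 had a copy at 1 FPKM or more and were tested together. The test was limma's treat on the within-library log2 ratio, asking for a difference beyond 2-fold. By Benjamini-Hochberg adjusted p under 0.05, 774 pairs (42.6%) differed beyond 2-fold, and the median difference was 2.76-fold. A pair could enter through its higher copy alone, which favours unequal pairs; where both copies had to reach 1 FPKM, 479 of 1447 pairs (33.1%) passed. The same copy was higher in all 5 libraries in 1316 pairs (72.4%). Of the 62 chosen brain pairs, 39 (62.9%) passed, with a median difference of 4.23-fold. With 1 FPKM asked of both copies, 31 of 54 chosen pairs (57.4%) passed. The chosen pairs were picked with earlier results of these data known and were not matched to all pairs by level. Their share, and the shares of their groups below, therefore cannot test whether such pairs are more often unequal. Of the 85, 23 could not be measured, 22 for want of a match by name and 1 because a copy was at 0. How fragments shared by near-identical copies were assigned is not given in the sources used here, and copies may differ more or less than shown. Without libraries 4 and 5, 831 of 1787 pairs and 40 of the 62 chosen pairs passed.

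In the release machinery 6 of 7 chosen pairs passed, beside 42.6% of all pairs, with the limits of the choice given above. Vesicle calcium sensor gene syt1a stood at 275 ± 58.1 FPKM and syt1b at 0.95 ± 0.85 FPKM (SD, n = 5 each), a log2 ratio of 8.59 ± 0.58 (SE; limma adjusted p = 3.54e-05). As syt1b rested on 3.2 fragments on average, that ratio moved to 9.36 and 7.22 with pseudocounts of 0.01 and 1. For the syntaxin-binding gene stxbp1a against stxbp1b, 336 ± 43.5 FPKM stood against 1.64 ± 1.34 FPKM, a log2 ratio of 7.93 ± 0.43 (SE; limma adjusted p = 1.34e-05). Vesicle protein genes sypa and sypb were the closest of this group. They had means of 375 ± 146 and 347 ± 49.7 FPKM (SD, n = 5 each) and a log2 ratio of 0.02 ± 0.18 (SE), with sypa higher in 3 of 5 libraries. Syntaxin gene stx1a was listed at 0 in every library.

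Among glutamate and GABA genes 7 of 13 pairs passed. That share, 53.8%, is on so few pairs near the 42.6% of all pairs. The granule cell receptor gene gabra6b exceeded gabra6a by a log2 ratio of −5.04 ± 0.81 (a over b, SE; limma adjusted p = 0.00302), on 0.15 against 7.17 FPKM. With gabra6a on 1 fragment on average and at 0 in 2 libraries, the size of that ratio depended on the pseudocount: it was −6.83 at 0.01 and −2.65 at 1. Library 5 moved it as well, to −5.99 when left out. Vesicular transporter gene slc17a7a exceeded slc17a7b, 43.5 ± 19.8 against 2.79 ± 0.62 FPKM (SD, n = 5 each; log2 ratio 3.76, limma adjusted p = 5.91e-04). The ratio of slc17a6a to slc17a6b had a mean of 0.17 ± 0.51 (SE), which hid 4 libraries with slc17a6a higher and library 5 with the reverse. Leaving out libraries 4 and 5 gave a log2 ratio of 0.78.

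Pairs of the glia and myelin group had a median difference of 49.6-fold, the largest of the 8 groups, against 2.76-fold over all pairs. That median counts the aqp1a and ptgds pairs, which entered through the higher copy alone. Their lower copies stood at 0.16 and 0.13 FPKM. Of its 6 pairs 4 passed, too few to read against the 42.6% of all pairs. The group also holds the slc2a1 and cldn5 pairs, which stand in the vessel list and did not pass. Its ptgds pair stands in the meninges and fibroblast list. Prostaglandin D synthase gene ptgdsb stood at 312 ± 268 FPKM and ptgdsa was at 0 in 4 of 5 libraries, so their log2 ratio of −10.60 (limma adjusted p = 7.62e-06) rests on the pseudocount. Aquaporin gene aqp1a.1 stood at 49.0 ± 18.2 FPKM against 0.16 ± 0.22 FPKM for aqp1a.2 (SD, n = 5 each; log2 ratio 7.93, limma adjusted p = 4.68e-05). The second copy was at 0 in 3 of 5 libraries, so this ratio too rests on the pseudocount, being 10.03 at 0.01 and 5.37 at 1. The glucose transporter genes slc2a1a and slc2a1b, 1.44 ± 0.29 apart on the log2 scale (SE), did not pass (limma adjusted p = 0.179), though slc2a1a was higher in 5 of 5 libraries. With libraries 4 and 5 left out, that difference was 1.69 and passed (limma adjusted p = 0.0432). Of 8 metabolic pairs 7 passed, against 42.6% of all pairs. Gene ckbb exceeded ckba by a log2 ratio of −6.65 ± 0.30 (a over b, SE, limma adjusted p = 8.31e-06). Gene aldoaa exceeded aldoab by 5.94 ± 0.21 (SE, limma adjusted p = 4.36e-06). The phosphoglycerate mutase genes pgam1a and pgam1b were closest there, at −1.12 ± 0.11 (SE; limma adjusted p = 0.292).

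**Figure D4:**
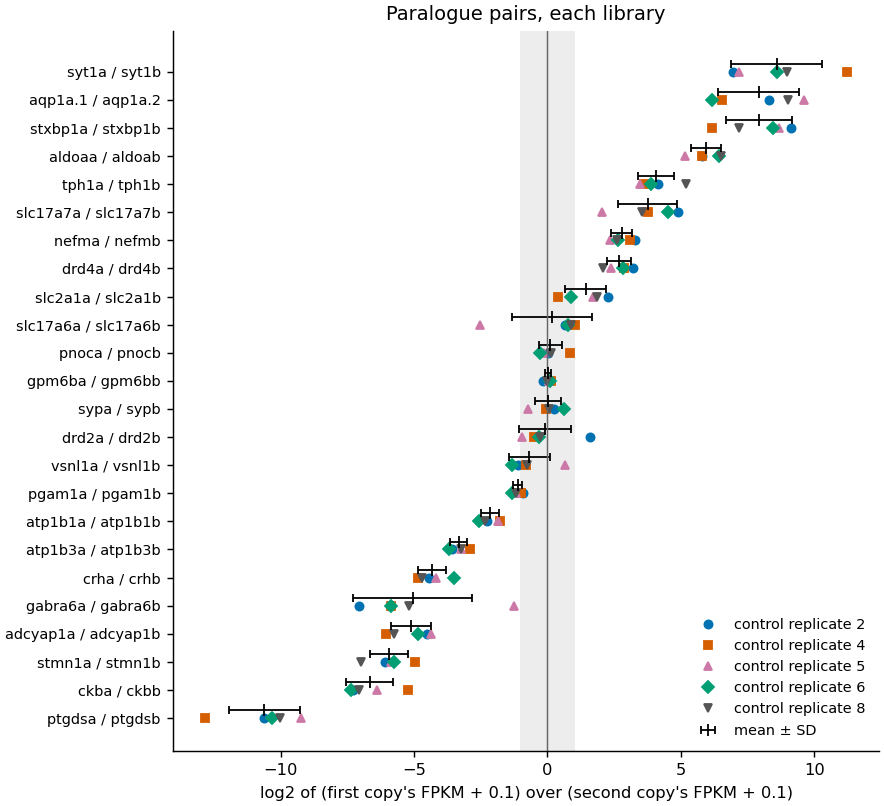
Log2 ratio of the first to the second copy (FPKM + 0.1), 1 point per control library, with the mean and SD in black; the grey band marks differences within 2-fold. Ratios run from −10.60 for ptgdsa over ptgdsb to 8.59 for syt1a over syt1b, and the longest ratios depend on the pseudocount. Library 5 is the odd one for slc17a6a and slc17a6b.

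Named pairs of the remaining groups ran from −5.93 to 4.06 on the log2 scale, first copy over second. Stathmin gene stmn1b exceeded stmn1a, 899 ± 271 against 15.5 ± 7.19 FPKM (SD, n = 5 each; log2 ratio −5.93, limma adjusted p = 7.62e-06), and the neurofilament gene nefma exceeded nefmb (2.79, limma adjusted p = 6.83e-05). Glycoprotein genes gpm6ba and gpm6bb were nearly equal at 135 ± 49.5 and 134 ± 55.2 FPKM, a log2 ratio of 0.04 ± 0.10 (SE). Their ratio held while library 5 had only 56.4 and 53.4 FPKM of them. PACAP gene adcyap1b exceeded adcyap1a by −5.10 ± 0.27 (a over b, SE; limma adjusted p = 1.62e-05) and the corticotropin-releasing hormone gene crhb exceeded crha by −4.33 ± 0.24 (limma adjusted p = 2.48e-05), while the nociceptin precursor genes pnoca and pnocb stood at 15.3 and 14.7 FPKM. Among monoamine pairs tph1a exceeded tph1b by 4.06 ± 0.36 (SE, limma adjusted p = 2.26e-04). The dopamine receptor gene drd4a exceeded drd4b by 2.68 ± 0.33 (SE, limma adjusted p = 0.00264). The lower copies tph1b and drd4b rested on 3.8 and 3 fragments on average. With pseudocounts of 0.01 and 1 the log2 ratios were 4.38 and 2.67 for tph1 and 2.90 and 1.66 for drd4. Genes drd2a and drd2b had means of 3.32 and 3.39 FPKM. Yet drd2a was higher only in library 2, at 5.27 against 1.68 FPKM, and lower in the others. The sodium pump beta subunit genes atp1b3b and atp1b1b exceeded atp1b3a and atp1b1a by −3.33 and −2.15 (a over b; limma adjusted p = 1.26e-05 and 2.59e-04), and the calcium sensor genes vsnl1a and vsnl1b differed by −0.67 ± 0.27 (SE; limma adjusted p = 1).

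The spread between libraries was wide. The median coefficient of variation (CV, the SD over the mean) of the 18029 expressed genes was 33.7%, with quartiles of 21.6% and 52.1%. It was lowest, 23.5%, for genes at 50 to 100 FPKM, and higher both for genes at 1 to 5 FPKM (49.2%) and for those above 1000 FPKM (39.3%). With the counting error of the fragments taken off, the low class came to 34.1% and the high class stayed at 39.3%. Without library 5 the median CV was 24.3%, and without libraries 4 and 5 it was 18.9%.

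Lists differed in spread. The median CV of members was 21.7% for glycine, 24.3% for glycolysis and creatine kinase genes and 27.12% for neurons, below the 33.7% of all genes. That 33.7% includes 6418 genes at 1 to 5 FPKM. Genes at 50 to 100 and at 100 to 500 FPKM had medians of 23.5% and 25.4%. Lists were not compared with genes of like level, so lower CVs are not a trait of these lists. It was 47.8% for neuropeptide precursors, 128% for muscle and 212% for skin. By Dixon's rule for 5 values on log2(FPKM + 0.1), 2379 of the 18029 genes (13.2%) had 1 library far from the other 4. Chance alone gives about 1 in 20 if values are normally distributed, which was not checked. Without genes under 10 fragments on average, 2023 genes (12.8%) were flagged. Library 5 was the odd one in 1697 of the 2379 genes, below the others in 1375, and library 4 in 398.

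Library 5 lay over 2-fold below the lowest of the other 4 libraries in 2270 of 15861 genes (14.3%) and over 2-fold above the highest in 268 (1.69%). Against that 14.3%, the lower genes were 11 of 24 measured GABA genes, 12 of 42 glutamate genes, 7 of 17 telencephalon genes and 9 of 35 clock genes. Neuron genes (4 of 27) and genes of dopamine and noradrenaline (3 of 27) were near that share. None of 71 ribosomal protein genes or 26 glycolysis and creatine kinase genes were among them; the 10 serotonin and 7 glycine genes, also with none, are too few to read against it. Names with the largest gaps, chosen after their values were seen, included rims4, which regulates transmitter release, at 13.4, 9.44, 0, 17.1 and 9.49 FPKM, and the potassium channel gene kcnq2b at 12.8, 6.34, 0, 8.81 and 6.26 FPKM in replicates 2, 4, 5, 6 and 8. Genes with no name made up 25.7% of the 2270 genes and 17.3% of all 15861. By gene length the shift of library 5 ran from a median log2 deviation of 0.36 in the shortest of 5 equal length classes to −0.32 in the longest, while the share far below the others was 15.8% in the shortest class and 12.4% in the longest. The part of RNA quality, region or cell makeup in this was not tested.

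Library 4 lay over 2-fold above the highest of the others in 579 genes (3.65%) and over 2-fold below the lowest in 112. Of 14 measured skin genes 13 were among the 579, as were 4 of 6 genes of ciliated cells and 3 of 11 genes of meninges and fibroblasts, but none of 27 neuron genes. Largest CVs at 5 FPKM or more fell to 2 kinds of gene. Small RNA genes such as snord22, U4 and U6 had 1 fragment in 1 library, and epithelial genes of library 4 such as tmprss13b, agr2, cldnb and krt1-c5 had CVs of 218% to 224%. Claudin gene cldnb, for example, was at 143 FPKM in library 4 and 0.39 to 1.03 FPKM in the others.

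**Figure D5:**
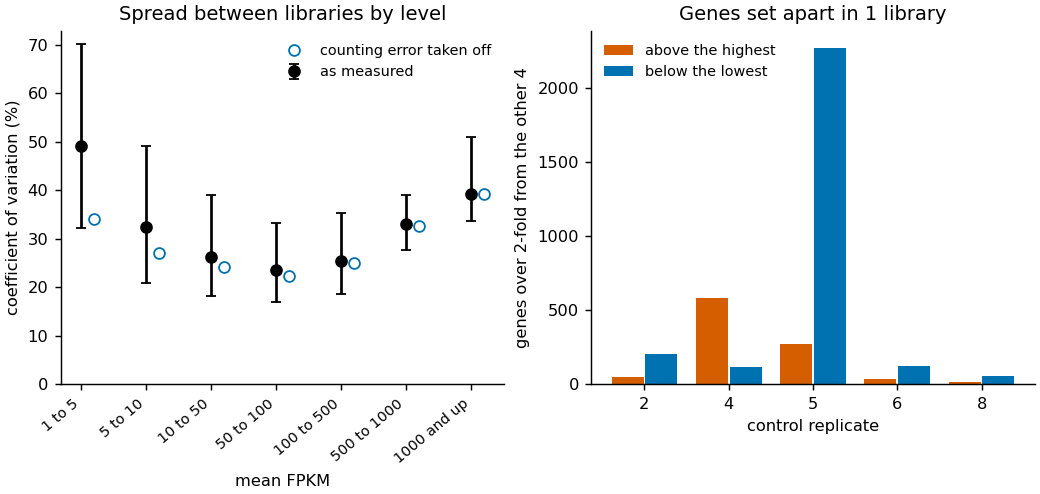
Left, median CV (%) between the 5 libraries by class of mean FPKM, with bars to the quartiles and open points after the counting error is taken off. Right, the number of genes over 2-fold above the highest or below the lowest of the other 4 libraries; replicate 5 has 2270 genes below and replicate 4 has 579 above.

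The smallest CVs were those of uprt (1.77%), nol6 (2.70%), mboat1 (2.78%), rngtt (3.10%) and stk3 (3.21%), followed by mnat1, rspry1, bgnb, hiat1a and dtx2 at up to 3.73%. Gene uprt was at 43.9, 43.2, 44.3, 45.3 and 44.7 FPKM in replicates 2, 4, 5, 6 and 8, on 45 to 145 fragments. All 10 CVs were below the counting error of their own fragments, 12.0% for uprt, so their order cannot be read as an order of steadiness. At 100 FPKM or more, where counting error is small, the smallest CVs were 4.66% for gdi2, which recycles Rab proteins, at 143 ± 6.65 FPKM (SD, n = 5), and 5.77% for the splicing kinase gene clk4a. Both were chosen after their values were seen.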

How the data were processed

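RNA was sequenced from the adult brain of F3 zebrafish as paired reads of 100 bases, per the labels' protocols. CASAVA 1.8.2, cutadapt, FastQC, TopHat and Cuffnorm, with the genome build Zv9, are named in the submitters' processing notes; neither annotation nor use of strand is given in the sources used here. The deposited count table holds a signal, fragment counts that the authors divided by 1 size factor per library. The deposited FPKM table was scaled by the authors across libraries. In each file 1 unnamed column was not used, and control replicate 1 was not analysed here.

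Levels, sums, shares and coefficients of variation were computed from FPKM with Python 3.11.15, pandas 2.3.3, numpy 2.4.6, scipy 1.17.1 and matplotlib 3.10.9. A gene with a mean of 1 FPKM or more was called expressed, and 0.1 FPKM was added before log2. Genes under 10 fragments on average were marked, a choice made after seeing the data. Depth was read from the step of the scaled counts, and counting error covers fragments only. Copies, paired by name, were compared in R 4.3.3 with limma 3.58.1 and statmod 1.5.0 (treat with a trend, robust, 2-fold, Benjamini-Hochberg over all pairs). Both scripts were tested on simulated data. Of 857 entries in 34 gene lists, 695 matched by symbol, 18 by an older name and 144 not at all.

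The libraries, lists and pairs were chosen with earlier results of these data known. Genes were named by rule: the 20 highest means and the 10 highest outside mitochondrial and ribosomal genes, the leading gene of each transmitter role, the 6 leading neuropeptide genes, the 3 leading genes of each list, the 2 most and the 1 least unequal pair of each group, and the 10 largest and 10 smallest coefficients of variation at 5 FPKM or more. Alternatives were other thresholds, pseudocounts and scalings, leaving out each library, and leaving out libraries 4 and 5.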

Additional observations from a re-analysis of the deposited data

Results flagged for a closer look

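Of 187 values tested, 17 (9.09%) had 1 library far from the other 4 on Dixon's criterion. Chance meets it about 1 time in 20 if values are normally distributed, which was not checked. The 187 values were not separate trials. Lists were tested along with some of their own members, and the genes over 2-fold from the others entered both as a number and as a percentage. Library 4 was low for the glycine list (107 FPKM, median of the 5 libraries 139 FPKM), the serotonin list (48.3 against 82.3 FPKM), the neuron list (4276 against 5772 FPKM) and the myelin gene mpz (341 against 575 FPKM). It was high for the keratin gene krt5 (1818 against 13.1 FPKM) and for ENSDARG00000081475, at 19419 FPKM from 1 fragment.

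Library 5 was high for the neuropeptide list (6288 against 3456 FPKM), the pituitary list (67.1 against 15.7 FPKM), the actin-binding tmsb4x (3483 against 1856 FPKM), the carbonic anhydrase gene cahz (442 against 89.1 FPKM) and the pituitary hormone precursor gene pomca (21.2 against 8.20 FPKM). It was low for the vesicular glutamate transporter gene slc17a6a (6.01 against 73.4 FPKM), the GABA-B receptor gene gabbr1b (2.60 against 31.4 FPKM) and the pallial factor gene eomesa (6.21 against 32.4 FPKM). In that library 4772 genes, or 30.1% of those measured, lay over 2-fold from the median of the others. Its FPKM total was the largest, 893439 against 596642 to 793173 FPKM, and the values above were not divided by it. How much of its high values goes with that total was not tested. In library 8, ENSDARG00000081369 was listed at 81485 FPKM from 3 fragments. What sets these libraries apart was not tested.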

How the results depend on the processing

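Of 142 alternative values for the main results, 6 changed sign and 17 moved by more than the tolerance, which was 1 SD between libraries (a jackknife error for the median CV) or, for counts, 1.5 times. The other 119 stayed within it, some with sizeable shifts: the share of the top 10 genes was 13.5% without mitochondrial genes, and 14138 genes reached 1 FPKM in every library. At 5 FPKM, 11611 genes counted as expressed. On scaled counts the top 10, 100 and 1000 genes held 10.8%, 23.7% and 52.4%. By the median of members, the log2 ratios of neighbouring systems were −0.91 (glutamate over GABA), 2.59 (GABA over dopamine and noradrenaline), −0.83 (these over acetylcholine), −0.66 (acetylcholine over glycine), 1.05 (glycine over serotonin) and −0.41 (serotonin over histamine). Without the most abundant member the last 4 were 0.57, 0.47, 0.16 and 1.64. Without libraries 4 and 5 glutamate over GABA was 0.040 and dopamine with noradrenaline over acetylcholine −0.0067; leaving out 1 library at a time gave glutamate over GABA −0.045 to 0.047. The median CV was 42.0% from 0.1 FPKM, 18.9% without libraries 4 and 5, and 24.3% to 35.9% leaving out 1 library. At 5 FPKM, 1411 genes had 1 library far from the others. Paralogue calls numbered 479 of 1447 (33.1%) with 1 FPKM asked of both copies and 1317 for any difference, and 690 to 799 leaving out 1 library. The cause of these shifts was not tested.

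Of 24 named pairs, 17 held in every setting. Pairs with a small mean log2 ratio changed sign, though the slc17a6 and drd2 copies were unequal within single libraries. Leaving out 1 library gave −0.51 to 0.13 for drd2a over drd2b and −0.045 to 0.84 for slc17a6a over slc17a6b. The same step gave −0.063 to 0.22 for pnoca over pnocb and −0.13 to 0.21 for sypa over sypb. Without libraries 4 and 5 drd2a over drd2b was 0.33, gpm6ba over gpm6bb −0.012 and pnoca over pnocb −0.040. No comparison between groups was made because a single group was described. Copies and transmitter systems were compared within each library. The planned dispersion of a count model was not run, since the deposited values are scaled and some are fractions of a fragment. Depth limits genes under 10 fragments, whose FPKM can rest on 1 fragment.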
